A study of Mus musculus with 6 samples.

Results

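The receptor genes of the BMP, Activin and TGF-beta pathways were examined on promoter arrays hybridised with chromatin recovered by antibodies to SMAD1/5, SMAD2 and SMAD4 (ChIP-chip). The set was fixed by name and holds 10 genes, which are Bmpr1a, Bmpr1b, Acvr1, Acvr1b, Tgfbr1, Bmpr2, Acvr2a, Acvr2b, Tgfbr2 and Tgfbr3. A probe belonged to the set where the array annotation named a member, with the older name Acvr2 read as Acvr2a. This gave 256 of 474380 probes and 9 of 10 genes, since 0 probes of these arrays name Bmpr2, which is not analysed here. The 9 genes stand among 17066 genes with probes.

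The cells were R1, a mouse embryonic stem cell line, kept undifferentiated without feeder cells in medium with serum replacement and leukemia inhibitory factor, and no ligand or inhibitor of these pathways is named in the labels. The SMAD1/5 antibody was raised against the linker of human SMAD1, the SMAD2 antibody against the linker of human SMAD2, and the SMAD4 antibody against that of human SMAD4. Each immunoprecipitate (IP) carried Cy5 and was set against its own input, DNA of the whole cell extract labelled with Cy3, on 2 arrays with different probes, so each gene was read on 1 array per antibody. The design text gives 1 biological replicate per antibody, there is no dye swap, and no control IP is among the 6 arrays, so differences between antibodies have no spread of experiments to be judged by and carry no p. The extraction text of the SMAD2 arrays names an anti-Smad1/5 antibody, while their titles and characteristics name Smad2. The arrays labelled SMAD2 are called by their titles here.

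The type I and type II receptors are serine/threonine kinases of the cell surface, and the type III receptor, Tgfbr3, is a co-receptor without a kinase domain. A ligand dimer brings type II receptors, whose kinase is always active, together with type I receptors, which they phosphorylate. The type I receptor then phosphorylates SMAD proteins, SMAD1 and SMAD5 for the BMP receptors and SMAD2 and SMAD3 for the Activin, Nodal and TGF-beta receptors, and these enter the nucleus with SMAD4 and bind DNA. In mouse embryonic stem cells BMP signals act with leukemia inhibitory factor to hold back differentiation.

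The promoters of the receptor genes are shown first, since SMAD proteins contact short DNA motifs. RefSeq promoter sequences (GRCm38.p6, from 250 bases before to 50 after a start) were at hand for 9 of 10 genes with 12 starts, 3 of them of Bmpr1b and 2 of Tgfbr1. The SMAD-binding element GTCTAGAC, a palindrome, was in 0 of 12 receptor promoters and in 0.213% of all 32851 promoters of this length. The SMAD box CAGAC, read on both strands (GTCTG on the other), was in 6 of 12 receptor promoters, against 49.6% of all promoters. The GC-rich element GGCGCC, its own reverse complement, was in 4 of 12 receptor promoters, those of Bmpr1a, Acvr1b, Bmpr2 and the upstream start of Tgfbr1, against 11.9% of all promoters. These 4 windows held from 59.3% to 79.7% G and C, against a median of 52.7% over all promoters, and the difference in share was not tested. No motif contains another. The promoter of Acvr1 and a promoter of Bmpr1b held none of the 3 in this window. The 250 bases before the start are printed 5′ to 3′ on the gene's strand for 3 genes, with the motif in capitals. Each has 1 start in RefSeq, a motif there and array probes at such distances by the array's own annotation. Bmpr1a, a type I BMP receptor, lies at chr14:34502547-34502796 on the minus strand, with GGCGCC at base -198. Acvr2a, a type II receptor for Activins and some BMPs, lies at chr2:48813859-48814108 on the plus strand, with GTCTG at -188. Tgfbr2, the type II TGF-beta receptor, lies at chr9:116175364-116175613 on the minus strand, with CAGAC at -160.
Bmpr1a: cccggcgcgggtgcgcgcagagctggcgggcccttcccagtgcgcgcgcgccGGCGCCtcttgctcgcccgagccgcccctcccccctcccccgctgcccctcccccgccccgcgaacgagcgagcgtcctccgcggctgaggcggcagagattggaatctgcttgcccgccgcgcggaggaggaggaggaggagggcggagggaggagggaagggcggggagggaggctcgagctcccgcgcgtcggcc
Acvr2a: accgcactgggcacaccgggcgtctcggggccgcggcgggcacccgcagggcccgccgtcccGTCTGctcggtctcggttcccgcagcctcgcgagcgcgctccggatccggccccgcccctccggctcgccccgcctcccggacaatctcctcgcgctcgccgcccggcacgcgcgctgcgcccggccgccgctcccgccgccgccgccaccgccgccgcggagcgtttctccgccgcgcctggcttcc
Tgfbr2: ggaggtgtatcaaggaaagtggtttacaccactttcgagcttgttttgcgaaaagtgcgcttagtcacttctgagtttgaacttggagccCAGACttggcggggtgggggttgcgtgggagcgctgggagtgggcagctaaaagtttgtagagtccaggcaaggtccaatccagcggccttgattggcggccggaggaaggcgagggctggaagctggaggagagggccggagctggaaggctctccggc
The promoters differed in base composition. The 300-base window held 48 CpG and 79.3% G and C at Bmpr1a, and 54 CpG and 80.3% at Acvr2a. It held 15 CpG and 59.0% at Tgfbr2, against medians of 7 CpG and 52.7% over all promoters. The windows of Acvr1 and Acvr1b held 51 CpG each, and the 3 windows of Bmpr1b 5 or 6.

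Immediately around the starts, from 250 bp before to 50 bp after by the array's own annotation, the receptor genes were read by 12 probes of 8 genes, too few to set apart from all genes. The values are log2 ratios of IP over input, centred on the array median. The SMAD2 ratios ran from -0.86 to 0.36 over the 11 probes with a value and the SMAD4 ratios from -0.82 to 0.43, so 0 were at or beyond 2-fold in either direction. Of the 22497 SMAD2 probes of all genes in that window, 9.29% were at 1 or above and 8.94% at -1 or below. Of the 22901 SMAD4 probes of all genes, 10.6% were at 1 or above and 12.1% at -1 or below. With 11 or 12 probes a count of 0 is near these shares. The SMAD1/5 ratios were wider, with 1 of 12 at 1 or above and 6 of 12 at -1 or below, against 18.7% and 41.0% of all such probes. The probe at 1 or above was that of Bmpr1b at -151 bp, with 1.72. At Acvr2a the probe at 25 bp read -1.32 with SMAD1/5, -0.49 with SMAD2 and -0.29 with SMAD4. That probe was bright in every channel, with IP signals 3.74, 3.22 and 3.42 and input signals 5.73, 3.62 and 3.82 above their array medians in log2, in the same order of antibodies. At Bmpr1a the probe at -113 bp read -0.92, -0.20 and -0.03. At Tgfbr2 the probes at -100 and -48 bp read -1.43 and -1.08 with SMAD1/5, -0.14 and 0.01 with SMAD2, and -0.23 and -0.11 with SMAD4. These probes begin at chr9:115847442 and chr9:115847642 of a gene on the minus strand, so their distances count from different starts. The array's positions are of a build not given in the sources used here, so whether its starts are those of the printed promoters was not tested.

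Across the wider tiled promoters, which reach from about 5 kb upstream to about 2 kb inside each gene, no receptor gene met the call for binding with any of the 3 antibodies. A window averages the ratios of a probe and of its neighbours up to 500 bp away, and its z says how far it lies from the median window of the array, in robust SDs of the lower side. A gene was called enriched with a window z of at least 4 that held at least 2 probes above the array's 95th percentile. With SMAD1/5, 0 of 9 receptor genes were enriched, where 0.0% of all 16746 genes were. With SMAD2, 0 of 9 were enriched, where 0.0657% of all genes were, and with SMAD4 0 of 9, where 2.45% were. The mirrored call for low windows was made for 0 of 9 receptor genes with each antibody, against 2.54%, 0.328% and 0.0478% of all genes with SMAD1/5, SMAD2 and SMAD4. A count of 0 of 9 stands near each of these backgrounds. The call asks for a window mean of 4.61 (24.4-fold) on SMAD1/5 array 1 and 4.17 (18.0-fold) on SMAD1/5 array 2, against 2.23 to 2.30 on the SMAD2 and SMAD4 arrays. A window below those heights is not called.

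Receptor genes were also counted at a lower bar, a window z of at least 2. With SMAD1/5, 2 of 9 genes reached it, Bmpr1b and Acvr2a, with 5.71% of all genes doing so. With SMAD2, 4 of 9 reached it, Bmpr1b, Acvr1, Acvr1b and Tgfbr3, against 17.9% of all genes. With SMAD4, 4 of 9 reached it, Bmpr1b, Tgfbr1, Acvr2a and Tgfbr2, against 39.3%. Windows at -2 or below were found for 2 of 9 genes with SMAD1/5 (background 31.4%), for 3 of 9 with SMAD2 (29.5%) and for 3 of 9 with SMAD4 (17.6%). The median peak z of the 9 genes was 1.28, 1.87 and 1.73 with SMAD1/5, SMAD2 and SMAD4, against 1.24, 1.33 and 1.71 over all genes. The members above 2 with SMAD1/5 were only just so, at 2.00 each, and no member was in the top percent of all genes with any antibody, Acvr1b with SMAD2 being the nearest at percentile 98.0. The counts at this bar rest on 9 genes and 1 array per antibody, and their differences were not tested. They also moved with the processing. After a within-array loess 0 of 9 genes reached it with SMAD1/5, against 15.8% of all genes, and with the mean input of the 3 antibodies 0 of 9 did with SMAD2, against 10.5%.

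**Figure D1:**
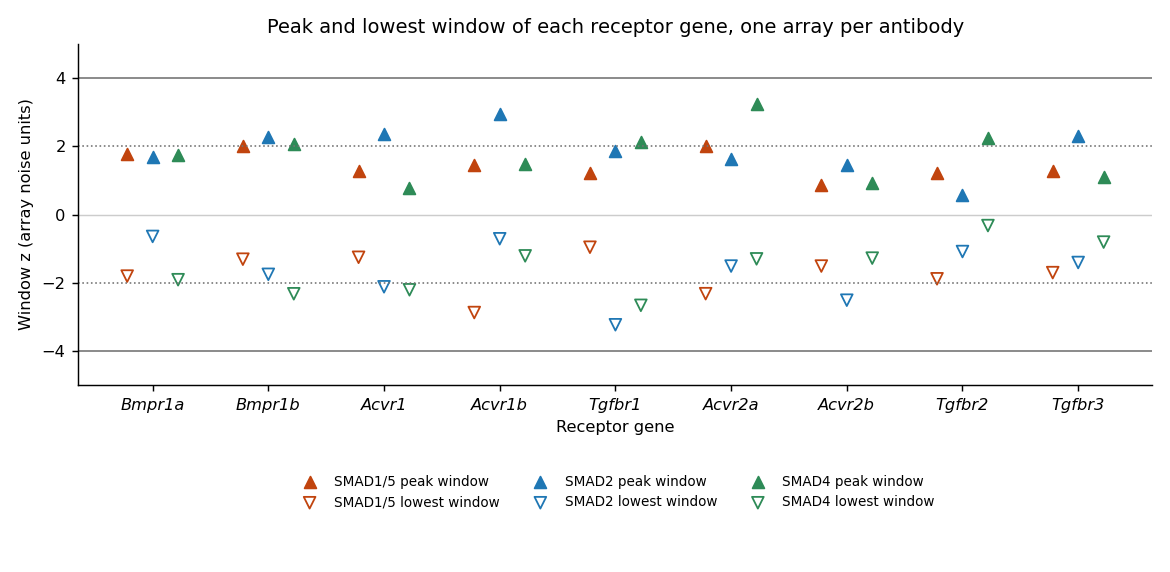
Highest (filled) and lowest (open) window z of each of the 9 receptor genes, with SMAD1/5 in red, SMAD2 in blue and SMAD4 in green. Solid lines mark the calls at 4 and -4 and dotted lines 2 and -2; every point lies between the solid lines, the highest being Acvr2a with SMAD4 at 3.25 and the lowest Tgfbr1 with SMAD2 at -3.23.

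Probe by probe, the receptor genes stood near the array as a whole. With SMAD1/5, 83 of 256 receptor probes (32.4%, 95% Wilson interval 27.0 to 38.4) had a log2 ratio of at least 1, against 27.5% of all probes. With SMAD2 this held for 39 of 249 (15.7%, 11.7 to 20.7), against 12.7%. With SMAD4 it held for 33 of 256 (12.9%, 9.33 to 17.6), against 16.5%. The intervals cover the counting of probes on 1 array only. Neighbouring probes share DNA fragments, so they are not independent. Ratios of at most -1 were seen for 76, 37 and 21 receptor probes, or 29.7%, 14.9% and 8.20%, against 31.0%, 13.5% and 10.1% of all probes. The median of the 9 genes' mean log2 ratios was -0.04, -0.06 and 0.04, against -0.22, 0.01 and 0.10 over all genes.

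Among the type I BMP receptors, Bmpr1b alone had a window z of at least 2 with all 3 antibodies, but at 3 different places and only in the processing reported here. In the 7 alternatives the 3 values were never at 2 or above together. Its SMAD1/5 peak z was between 1.18 and 1.94 in 6 of them, and with the mean input, where it was 2.32, the SMAD2 peak z was 1.69. Bmpr1b was tiled by 34 probes from -5413 to 1567 bp. The SMAD2 peak was centred at -4527 bp (chr3:141880334-141880664, z 2.28), with a mean ratio of 1.32 ± 0.60 (SD over 3 probes). The SMAD1/5 peak was centred at -3752 bp (chr3:141879591-141880072, z 2.00), with 2.21 ± 0.38 over 3 probes. The SMAD4 peak was centred at -1917 bp (chr3:141877565-141878401, z 2.06), with 1.22 ± 1.18 over 5 probes. Positions here and below are those of the array annotation. In the SMAD2 peak the SMAD1/5 z was -0.89, and in the SMAD1/5 peak the SMAD2 z was 0.23, so neither window was high with both. The SMAD4 z was 1.05 in the SMAD2 peak and 1.33 in the SMAD1/5 peak. None of the 3 probes of the SMAD2 peak was well above background in both SMAD1/5 channels, so that -0.89 is uncertain. At its own peak the SMAD1/5 array showed 2 of 3 probes well above background in both channels. Bmpr1b was dim in every channel, with mean IP signals at percentiles 10.3, 11.9 and 15.6 of all genes and mean input signals at percentiles 5.00, 6.62 and 13.7, in the order SMAD1/5, SMAD2 and SMAD4. On the SMAD1/5 array 17 of its 34 probes were well above background in both channels, against 28 with SMAD2 and 33 with SMAD4.

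Bmpr1a had its mean log2 ratio high on 2 of the 3 antibodies' arrays. Its 30 probes averaged 0.29 ± 1.91 with SMAD1/5 (percentile 85.1 of all genes), 0.40 ± 0.71 over 29 probes with SMAD2 (percentile 93.0) and -0.08 ± 0.88 with SMAD4 (percentile 27.1), each an SD over probes. The SD exceeded the mean each time. Its peaks stayed below a z of 2, at 1.78 with SMAD1/5 at -2929 bp, 1.67 with SMAD2 and 1.73 with SMAD4, the last pair in the same window at -2162 bp. In that shared window the SMAD2 ratio averaged 0.95 ± 0.61 over 3 probes and the SMAD4 ratio 1.03 ± 0.80 over 4 probes.

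Acvr1, a type I receptor for several BMPs, was the receptor gene with the lowest mean SMAD4 ratio. Its 30 probes averaged -0.42 ± 0.81 with SMAD4, at percentile 4.37 of all genes, against 0.18 ± 1.44 with SMAD1/5 (percentile 78.9) and -0.08 ± 1.29 with SMAD2 (percentile 38.2). Within 1000 bp of its start the 9 probes averaged -0.63 ± 0.54 with SMAD4 and -0.61 ± 1.03 with SMAD2, but 0.82 ± 0.67 with SMAD1/5. There the mean SMAD4 IP signal was 0.05 and the mean SMAD4 input 0.80 in log2 around the array medians. The SMAD4 peak z of Acvr1 was 0.79, and 2.04 against the mean input of the 3 antibodies. Its SMAD2 peak lay inside the gene at 1821 bp (chr2:58514837-58515437, z 2.36), with 1.37 ± 0.77 over 4 probes, of which 1 was well above background in both channels. There the SMAD2 IP signal was -0.85 and the SMAD2 input -2.30 relative to their array medians in log2, so both channels were dim and the input was the dimmer. The lowest Acvr1 ratio with SMAD2, at -1774 bp, came from a probe that was not well above background in both SMAD2 channels. The size of that ratio is uncertain. The same probe read -1.21 with SMAD1/5 and 0.02 with SMAD4.

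Among the type I receptors that act on SMAD2, Acvr1b, a receptor for Activin and Nodal, had the highest SMAD2 window of the 9 genes. The window was centred at 1878 bp inside the gene (chr15:101160782-101161532), with a z of 2.94 and a mean of 1.65 ± 0.72 over 5 probes. From 1660 to 2359 bp these probes read 2.32, 0.48, 1.58, 1.67 and 2.17 with SMAD2. The same probes read 2.41, -0.58, 0.79, 1.88 and 1.50 with SMAD1/5 and 0.62, -0.50, 0.31, -0.13 and 1.40 with SMAD4. The probe at 1660 bp was not well above background in both channels with SMAD2 or with SMAD1/5, so its 2.32 and 2.41 are uncertain. Of the 4 probes that were bright in both SMAD2 channels, 3 were at 1 or above, and the probe at 1878 bp was the lowest of the 5 with each antibody. The window z was 1.21 with SMAD1/5 and 0.48 with SMAD4. Under normexp background correction the SMAD2 peak z of Acvr1b was 1.09, and against the mean input of the 3 antibodies it was 1.97, while with bright probes only it was 2.63. In this window the IP signal was 0.58 with SMAD2, 0.30 with SMAD1/5 and 0.28 with SMAD4 in log2 around the array medians, while the input signal was -1.13, -0.46 and 0.04. Over its whole tile of 19 probes with a SMAD2 value, Acvr1b averaged 0.51 ± 1.13 with SMAD2, at percentile 97.0 of all genes, against percentile 86.3 with SMAD1/5 (0.32 ± 2.02) and percentile 76.3 with SMAD4 (0.32 ± 0.72).

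Acvr1b also held the lowest ratio of all receptor probes, at 1374 bp with SMAD1/5, where it read -6.78. The same probe read 1.13 with SMAD2 and 1.00 with SMAD4. Its lowest SMAD1/5 window was centred at 976 bp, with a z of -2.87 and a mean of -3.15 ± 3.39 over 3 probes. That is the window of its SMAD4 peak, with a z of 1.48. The input signal there stood at 3.75 on the SMAD1/5 array, 0.21 on the SMAD2 array and -0.24 on the SMAD4 array, while the IP signal was 0.16, 0.66 and 0.55.

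Tgfbr1, the type I TGF-beta receptor, had the lowest SMAD2 and SMAD4 windows of the 9 genes, and they overlapped. The SMAD2 window was centred at -4168 bp (chr4:47362770-47363156, z -3.23), with a mean of -1.80 ± 0.51 over 3 probes that read -1.21, -2.11 and -2.07. The SMAD4 window was centred at -4319 bp (chr4:47362339-47363156, z -2.66), with -1.41 ± 0.98 over 4 probes. With SMAD1/5 the 3 shared probes read -5.49, 0.47 and 0.99, so 1 of 3 was low. No low call was made, and 3.21% and 3.34% of all genes had a lowest z at or below these with SMAD2 and SMAD4. The Tgfbr1 peak windows were at -5302 bp with SMAD1/5 (z 1.21) and SMAD2 (z 1.87) and at 1664 bp with SMAD4 (z 2.14), where 1 of 3 probes was at 1 or above, with 2.98 at 1174 bp.

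**Figure D2:**
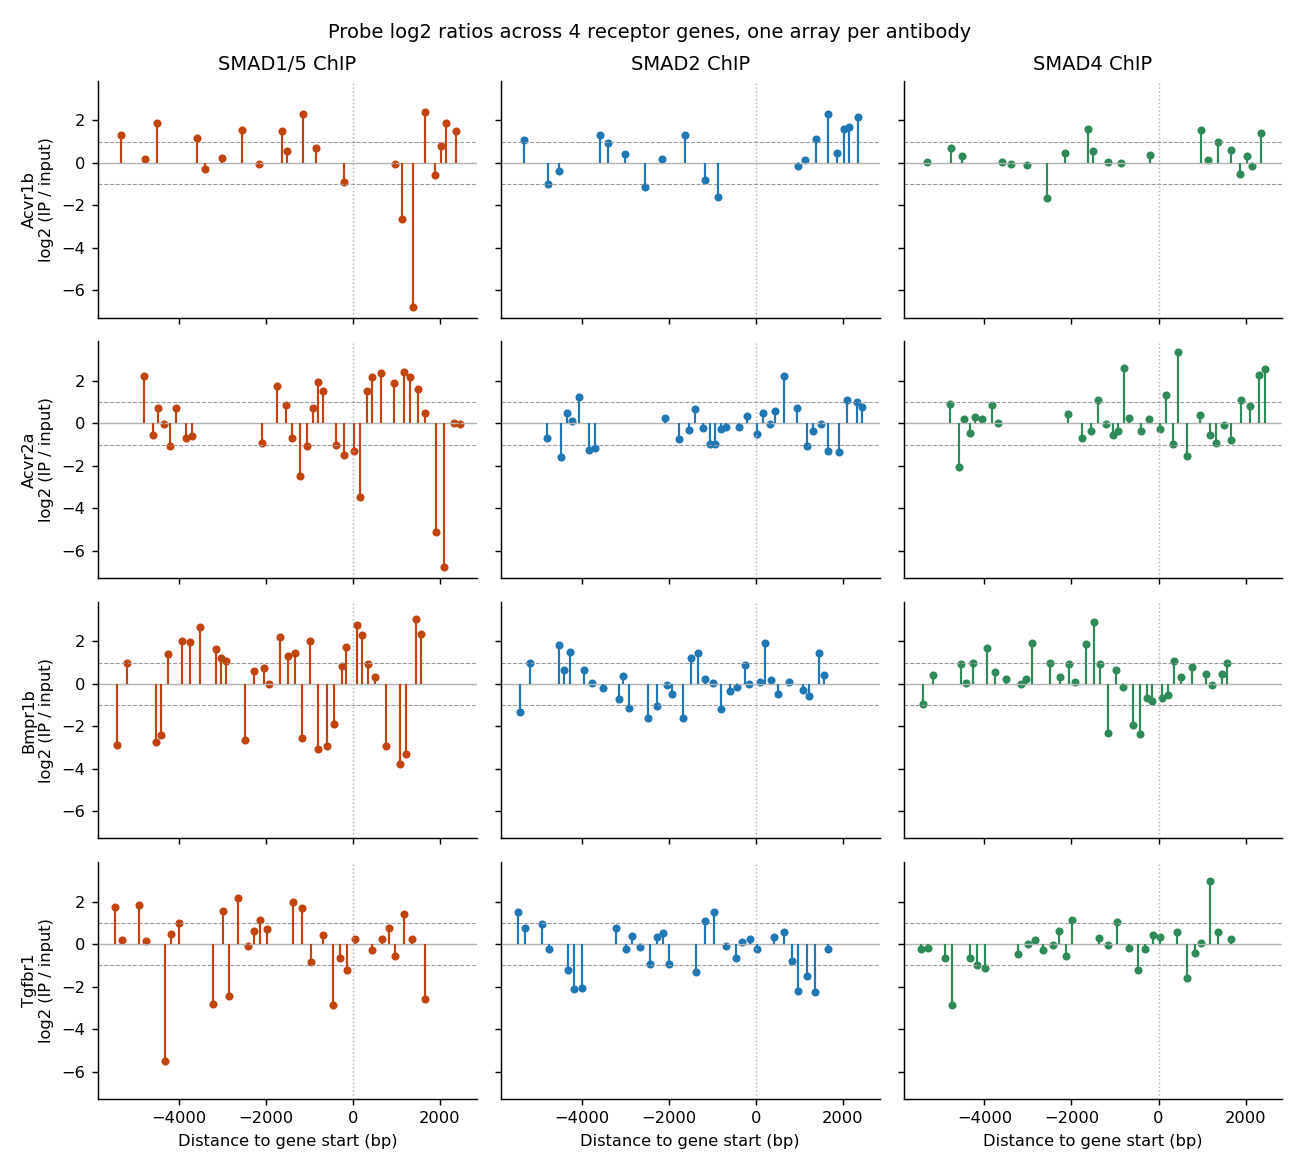
Log2 ratio of IP over input of every probe of Acvr1b, Acvr2a, Bmpr1b and Tgfbr1 by distance to the gene start in bp, 1 row per gene and 1 column per antibody. Dashed lines mark 1 and -1. The SMAD1/5 column has the widest scatter, with single probes down to -6.78 at Acvr1b, while the SMAD2 probes of Acvr1b at 1660 bp and beyond lie between 0.48 and 2.32, the highest of them not well above background.

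Of the type II receptors, Acvr2a had the highest mean peak z over the 3 antibodies (2.29) and the highest SMAD4 window. That window was centred at 2451 bp inside the gene (chr2:48823540-48823944), with a z of 3.25 and a mean of 1.88 ± 0.95 over 3 probes, which read 0.80, 2.30 and 2.55. The SMAD2 peak was the same window, with probes at 1.08, 1.00 and 0.77, a mean of 0.95 ± 0.16 and a z of 1.62. The last of the 3 was not well above background in both SMAD2 channels, so its ratio is uncertain. With SMAD1/5 these probes read -6.76, 0.03 and -0.05, a z of -1.72. The SMAD4 IP signal there was 0.28 in log2 around the array median, and the SMAD4 input was -1.49. Set against the mean input of the 3 antibodies, the SMAD4 peak z of Acvr2a was 0.92. In the window at 2451 bp that mean takes in inputs of 3.81 with SMAD1/5 and -1.74 with SMAD2. The SMAD1/5 peak lay elsewhere, at 950 bp (chr2:48822095-48822807, z 2.00), with 2.21 ± 0.22 over 4 probes between 1.91 and 2.41, the smallest SD of the 9 SMAD1/5 peaks. SMAD4 had its lowest window of the gene at that place, with a mean of -0.65 ± 0.80 and a z of -1.30. Of the 4 probes, 3 were well above background in both channels with SMAD1/5, and for the other the ratio is uncertain.

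Acvr2a also showed how far a SMAD1/5 input could stand from the others. At 1903 and 2102 bp the SMAD1/5 input signal was 8.04 and 8.96 above its array median in log2, and the ratios were -5.12 and -6.76. At the same probes the ratios were -1.33 and 1.08 with SMAD2, and 1.08 and 0.80 with SMAD4. The other type II Activin receptor gene, Acvr2b, had the lowest mean SMAD1/5 ratio of the 9 genes, -0.73 ± 1.91 over 26 probes (percentile 17.2), and its peaks were 0.88, 1.45 and 0.92 with SMAD1/5, SMAD2 and SMAD4.

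**Figure D3:**
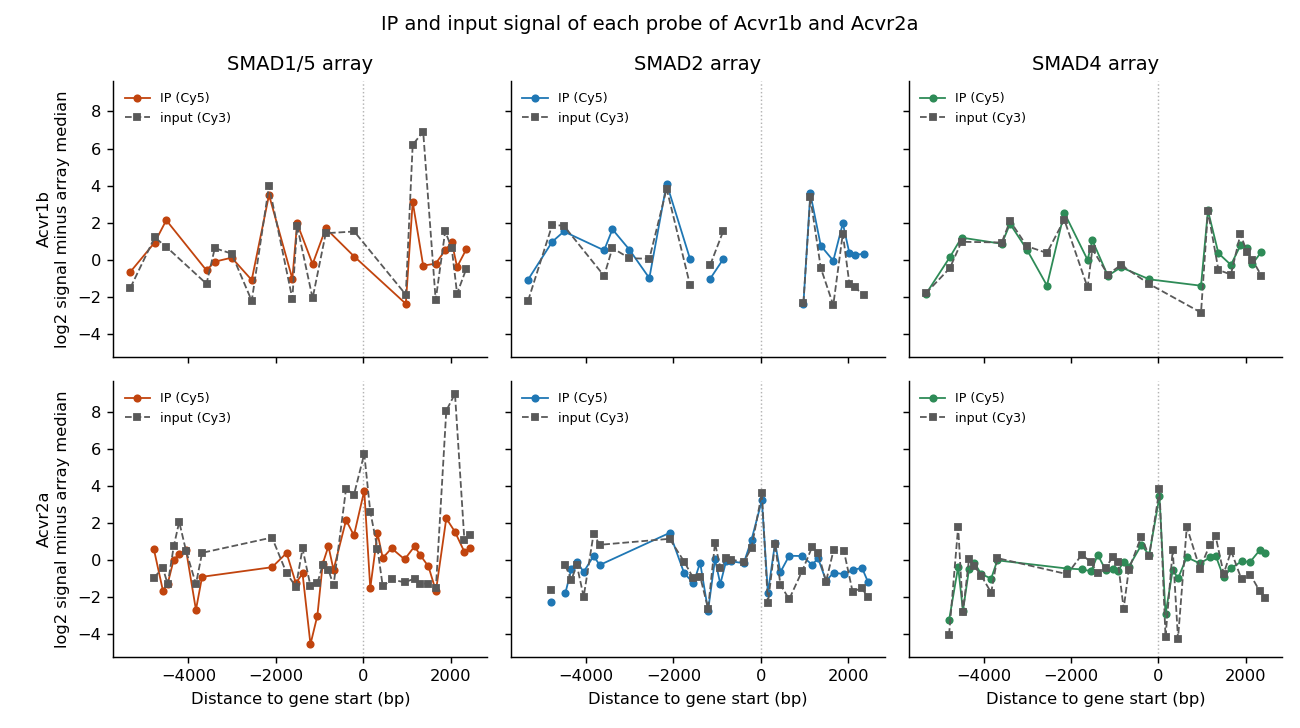
IP signal (coloured, solid) and input signal (grey, dashed) of each probe of Acvr1b and Acvr2a, in log2 minus the array median, by distance to the gene start in bp, 1 column per antibody. The SMAD1/5 input stands far above the IP at neighbouring probes inside both genes, with IP signals of 3.13 and -0.30 against inputs of 6.20 and 6.92 at 1134 and 1374 bp of Acvr1b, and IP signals of 2.25 and 1.52 against inputs of 8.04 and 8.96 at 1903 and 2102 bp of Acvr2a.

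Of the type II genes, Tgfbr2 had the widest range of mean ratios over the antibodies. Its 23 probes averaged -0.70 ± 2.15 with SMAD1/5 (percentile 18.6), -0.18 ± 0.80 over 22 probes with SMAD2 (percentile 26.5) and 0.37 ± 0.97 with SMAD4 (percentile 81.2). The SMAD4 peak at -1552 bp (chr9:115849145-115849622, z 2.26) averaged 1.32 ± 0.75 over 3 probes, of which 1 was at 1 or above. Its SMAD2 peak was the lowest of the 9 genes, with a z of 0.56. Tgfbr3, the type III receptor betaglycan, which presents ligand to the type II receptor, had a SMAD2 peak at 1503 bp (chr5:106464902-106465798, z 2.30) with 1.33 ± 0.77 over 4 probes. The SMAD4 lowest window of Tgfbr3 was the same one, with a z of -0.81. Its probe at -273 bp was saturated with each antibody, so no ratio is given for it.

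By receptor class, the shares of probes at 1 or above are given for the 5 type I genes and for the type II and III genes, beside those of all probes. With SMAD1/5 the share was 37.9%, or 55 probes, (30.4 to 46.0) for type I and 25.2% of 111 probes (18.1 to 34.0) for type II and III, against 27.5% of all probes. With SMAD2 it was 19.7% of 142 (14.0 to 27.0) and 10.3% of 107 (5.84 to 17.5), against 12.7%. With SMAD4 it was 12.4%, or 18 probes, (8.00 to 18.8) and 13.5% of 111 (8.36 to 21.1), against 16.5%. These intervals cover the counting of probes on 1 array only, and neighbouring probes are not independent. They cannot set the classes apart from each other or from all probes, and neither difference was tested.

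By place, the SMAD2 probes inside the receptor genes beyond 1000 bp come first. They were picked as the place and antibody with the largest difference in share from all genes. Of 52 such probes 15 (28.8%, Wilson interval 18.3 to 42.3) were at 1 or above, against 13.9% of all such probes, and their mean was 0.34 ± 1.13, against 0.02 ± 0.95. Acvr1b gave 5 of the 15, and without it the share was 10 of 45 (22.2%, 12.5 to 36.3). Neither interval allows for that choice or for neighbouring probes, which are not independent. The difference from all such probes was not tested. Within 1000 bp of the start the order turned, with 6 of 78 receptor probes (7.69%) at 1 or above, against 12.4% of all such probes. With SMAD4 the inner receptor probes were at 17.0% and all such probes at 17.7%. With SMAD1/5 they were at 35.8% and 29.3%, and upstream beyond 1000 bp at 36.1% and 28.2%. The inner receptor probes had a mean SMAD2 IP of -0.44 and a mean input of -0.85 in log2 around the array medians. For all such probes these means were 0.03 and -0.07.

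The 2 channels were then read in the highest window of each receptor gene, whatever its z, which was as low as 0.56. These windows were picked for a high ratio of IP over input, and such a choice favours a low input, so the counts are read only beside those of all genes, picked the same way. Each peak window's IP signal was set against the mean of the other 2 IPs in the same probes, and likewise for its input. Such a difference can come from 1 of the other 2 arrays alone. In the SMAD4 peak of Acvr1b, which counts as low, the input was -0.24 with SMAD4, 0.21 with SMAD2 and 3.75 with SMAD1/5. With SMAD4, 5 of 9 peaks had an input at least 1 (log2) below the mean of the other 2 inputs, against 57.3% of all genes' peaks. An IP at least 1 above the mean of the other 2 IPs was seen in 0 of 9, against 5.28%. With SMAD2 these counts were 6 of 9 and 1 of 9, against 44.3% and 9.77%. With SMAD1/5 they were 3 of 9 and 3 of 9, against 12.7% and 21.5%. For SMAD4 the receptor genes were near the share of all genes, and for the others the difference was not tested. The SMAD2 peak with an IP at least 1 above the mean of the other 2 was that of Bmpr1b (1.23). There the IP was -0.46 with SMAD2, -0.15 with SMAD4 and -3.23 with SMAD1/5, so the SMAD2 IP was not above the SMAD4 IP. With SMAD1/5 no probe of that window was well above background in both channels. The SMAD1/5 peaks with an IP at least 1 above that mean were those of Bmpr1a, Bmpr1b and Tgfbr1 (1.18, 1.18 and 1.61). The SMAD4 peak of Acvr2a had an input 2.53 below the mean of the other 2 inputs and an IP 0.19 above the mean of the other 2 IPs. Its inputs were -1.49 with SMAD4, -1.74 with SMAD2 and 3.81 with SMAD1/5. Its IPs were 0.28, -0.70 and 0.87 in the same order.

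**Figure D4:**
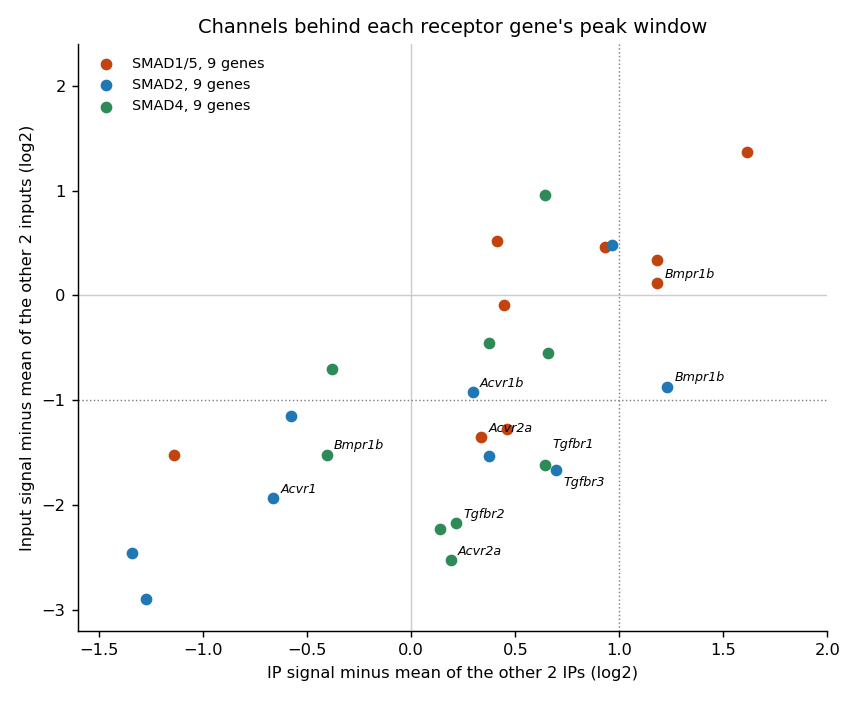
IP signal of each receptor gene's peak window minus the mean of the other 2 IPs (x axis, log2) against the input signal minus the mean of the other 2 inputs (y axis, log2), for 9 genes and 3 antibodies. Names mark windows with a z of at least 2. Of the 18 SMAD2 and SMAD4 points, 11 lie below -1 on the input axis, Acvr2a with SMAD4 at -2.53, and 4 of the 27 points lie beyond 1 on the IP axis.

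Across the receptor probes the 3 IPs resembled each other, and the ratios did not. The IP signals correlated at r = 0.80 between SMAD4 and SMAD2 (249 probes), 0.65 between SMAD4 and SMAD1/5 (256) and 0.60 between SMAD1/5 and SMAD2 (249). The inputs correlated at 0.60, 0.44 and 0.53 in the same order, and the log2 ratios at 0.10, 0.03 and 0.10. Over all probes the IPs gave 0.80, 0.63 and 0.60, and the ratios 0.06, 0.03 and 0.04. The ratio followed the own input inversely, with r of -0.63, -0.49 and -0.48 for SMAD1/5, SMAD2 and SMAD4, and the own IP weakly, with 0.25, 0.10 and 0.12. These values share probes, probe sequence and base composition, and a ratio shares its channels, so they are descriptions only.

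The signal that the values rest on differed by antibody. Both channels of a probe were well above background for 194, 221 and 255 of the 256 receptor probes with SMAD1/5, SMAD2 and SMAD4. The median input over its local background was 2.35 and 2.73 on the SMAD1/5 arrays, 7.45 and 6.90 on the SMAD2 arrays, and 5.36 and 5.05 on the SMAD4 arrays. The outlier flag of the scanner software removed 0, 7 and 0 of the 256 probes, and 1, 2 and 1 were saturated and kept. What part these differences have in the antibodies' values was not tested.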

How the data were processed

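R1 cells were profiled with 3 antibodies on 6 arrays, grouped by the antibody and array number of their titles, with 1 array per antibody for each gene. Each deposited scanner file holds a processed intensity of every spot in each channel, which per the file headers was background-subtracted, detrended and dye-normalised by Agilent Feature Extraction (version 9.1.3.1 with a copy number protocol for SMAD1/5 and SMAD2, version 9.5.3.1 with a ChIP protocol for SMAD4). Extraction and antibody cannot be told apart for SMAD4. Other columns of the deposited files hold spot flags of 0 or 1 per the file headers. The authors' log2 values, for which the submitters' processing notes name limma with no steps, correlated at 0.74 to 0.95 with log2 red over green, at slopes of 0.44 to 0.90 and medians of 0.08 and -0.01 (SMAD1/5), 0.05 and 0.04 (SMAD2), and -0.0047 and -0.0023 (SMAD4). Their centring and scale stay unknown, and they served as an alternative.

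Spots flagged as outliers were left out, and the log2 of processed red over green was set to a median of 0 on every array, without loess. A window took the probes within 500 bp and needed at least 3. Its robust SD was 1.4826 times the median deviation below the median window. A call needed a z of 4 and 2 probes beyond the 95th (for low windows the 5th) percentile. The windows and calls were run on simulated ratios with independent noise, as a check of the code only. That noise was narrower than on the SMAD1/5 arrays, where the probe SD was 1.93 and 1.76. How the calls perform on these arrays was not tested. The 7 alternatives were the authors' values, normexp with an offset of 50, the mean input of the 3 antibodies, removal of the trend on the own input, within-array loess, bright probes only and windows of 1000 bp. Shares carry 95% Wilson intervals, which cover counting only, and the number of arrays limits the precision. Python 3.11.15, numpy 2.4.6, pandas 2.3.3, R 4.3.3 and limma 3.58.1 were used.

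Of 17060 names in the array annotation 16079 were updated through a RefSeq accession of the GRCm38.p6 table and 981 kept, which gave 17066 genes. Motifs were searched in RefSeq promoters (GRCm38.p6). A search of the receptors' protein sequences was planned and not run, since no protein table was used here. All receptor genes were named, then list members with an enriched or low window (up to 4 per list), and the 3 genes nearest in peak z to the receptor with the highest mean peak z. Members and lists were chosen with earlier results of these data known.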

Additional observations from a re-analysis of the deposited data

How the results depend on the processing

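The count of receptor genes with an enriched window was 0 with each antibody in all 7 alternatives, where at most 4.90% of all genes had one. Of 99 main values recomputed, 68 kept their value within the tolerance set for them. Low windows appeared in 1 of 9 receptor genes with normexp (SMAD1/5, Acvr2a), where 16.3% of all genes had one, and in 1 of 9 with the mean input (SMAD2, Tgfbr1), where 3.06% did, against 0 as reported.

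The number of the 9 receptor genes with a peak z of at least 2 is given with the share of all genes under the same setting. With SMAD1/5 it was 2 (5.71% of all genes), and became 1 with the authors' values (Bmpr1a, 14.6%), 3 with the mean input (Bmpr1a, Bmpr1b and Tgfbr1, 18.4%), and 0 with the input trend removed (10.5%), loess (15.8%), bright probes only (3.39%) and windows of 1000 bp (9.13%). With normexp it was again 2, but Bmpr1a and Acvr1b (42.3%) in place of Bmpr1b and Acvr2a. With SMAD2 it was 4 (17.9%), and became 1 with the authors' values (Acvr1b, 8.97%), normexp (Bmpr1a, 13.5%), the input trend removed (Acvr1b, 5.36%) and loess (Acvr1b, 10.8%), 2 with windows of 1000 bp (Acvr1 and Acvr1b, 14.0%), 3 with bright probes only (Bmpr1b, Acvr1b and Tgfbr3, 12.3%) and 0 with the mean input (10.5%). With SMAD4 it was 4 (39.3%), and became 2 with the authors' values (29.9%) and loess (32.2%), Acvr2a and Tgfbr2 in each, 2 with the mean input (Bmpr1b and Acvr1, 11.6%), and 1 with normexp (Acvr2a, 26.1%), the input trend removed (Acvr2a, 15.2%) and windows of 1000 bp (Bmpr1b, 30.2%). It stayed at 4, the same genes, with bright probes only (39.1%).

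The share of SMAD1/5 receptor probes at 1 or above was 9.77% with the authors' values, 8.59% with normexp, 25.0% with the input trend removed and 18.4% with loess, against 9.60%, 9.54%, 20.4% and 17.0% of all probes. For SMAD2 it was 11.6% with the authors' values and with loess, 7.23% with the mean input and 7.63% with the input trend removed, against 8.37%, 9.08%, 8.61% and 6.94% of all probes. For SMAD4 it was 8.20% with the authors' values, 5.86% with normexp and with the input trend removed, and 18.5% with the mean input, against 11.2%, 8.44%, 9.17% and 14.5%. The causes were not tested. Of 189 single-gene peak z values, 163 stayed within 1 of the value reported, and 9 of the 26 that moved did so with the mean input.

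No paired analysis was possible because each antibody has 1 biological replicate, and no replicate was left out for the same reason. Background in the SMAD1/5 input and the absence of a dye swap or a control IP limit what the ratios show.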

Other observations

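Other genes of the pathway were read from lists of neighbours of the receptors. Of 13 ligand genes with windows, 1 was enriched with SMAD4 (against 2.45% of all genes), Bmp2, a BMP ligand, with a peak z of 4.20, a SMAD1/5 peak z of 1.48 and a SMAD2 peak z of 1.77. Bmp4, another BMP ligand, had a low SMAD1/5 window with a z of -4.93, and Bambi, a pseudoreceptor without a kinase domain, had one with a z of -4.36 among 10 other receptors and co-receptors. With SMAD2 and SMAD4 the lowest windows of Bmp4 were at -1.40 and -1.71, and those of Bambi at -1.36 and -1.76. Low SMAD1/5 windows were called in 2.54% of all genes. Over the alternatives that share ran from 0.143% (input trend removed) to 16.3% (normexp). The share with an enriched SMAD4 window ran from 0.0119% (mean input, and input trend removed) to 2.44% (bright probes only). Whether the calls of Bmp2, Bmp4 and Bambi hold in the alternatives was not tested. Of 10 genes for SMADs and their ubiquitin ligases and of 4 FGF receptor genes, 0 had an enriched or low window with any antibody. FGF receptor probes were at 1 or above in 27.2% with SMAD1/5, 10.1% with SMAD2 and 19.6% with SMAD4, near the 27.5%, 12.7% and 16.5% of all probes.

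The genes whose 3 peak z values lay nearest to those of Acvr2a, over 3 antibodies and 16742 genes, were Crtam (distance 0.11), Cpa4 (0.12) and Synb (0.16). Crtam had peak z values of 2.02, 1.64 and 3.14 with SMAD1/5, SMAD2 and SMAD4. There were 188 genes within a distance of 0.5.

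At Tgfbr1 the probe at -2843 bp was bright in every channel and was saturated on the SMAD2 array, so no SMAD2 value is given for it. Its IP signals were 7.38 with SMAD1/5 and 6.41 with SMAD4, against input signals of 10.48 and 6.31, in log2 above the array medians. The ratios were -2.43 with SMAD1/5 and 0.21 with SMAD4.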
